A study of Mus musculus with 12 samples.

Results

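The 7 mouse sirtuin genes, Sirt1 to Sirt7, were followed in RNAseq libraries of sorted small intestinal epithelial cells. They were taken by their gene symbols from a count table of 34245 rows, in which each sirtuin had a single row, and all 7 passed the filter on low counts in every comparison. Intestinal stem cells (ISC) were GFP-high cells from crypts, and adult enterocytes (AE) were Epcam-high, CD31-, CD45- cells from villi. All mice were C57BL/6 males carrying the Lgr5-EGFP-IRES-CreERT2 knock-in allele, which places GFP and a tamoxifen-dependent Cre under the Lgr5 locus. GFP therefore chose the ISC. Whether the gate against CD31 and CD45 also left GFP-positive cells out of the AE is not given in the sources used here. Young mice were middle-aged, at about 8 months, and aged mice were about 27 months old, with 3 libraries in each of the groups young ISC, aged ISC, young AE and aged AE, and no treatment in any of them. Libraries are named by the code in their column, which is Y1, Y2 or Y3 for young and O1, O3 or O5 for aged.

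Sirtuins remove acetyl and other acyl groups from lysines, and some of them also transfer ADP-ribose. Each reaction consumes NAD+ and releases nicotinamide, which links these enzymes to the metabolic state of the cell, and the family is widely studied in ageing. SIRT1, SIRT6 and SIRT7 are mainly nuclear proteins, SIRT2 is mainly cytosolic, and SIRT3, SIRT4 and SIRT5 work in mitochondria. In the intestine, stem cells at the crypt base renew the epithelium and their progeny differentiate as they move onto the villus.

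The libraries held between 11893817 and 26796461 counts, apart from young AE library Y3 with 110794420. Lgr5, a receptor gene that defines crypt base stem cells, was at 79.6 to 146 counts-per-million (CPM) in ISC and at 0.551 to 4.71 CPM in AE. Sis, which encodes sucrase-isomaltase, was at 95.2 to 691 CPM in ISC and at 4180 to 8540 CPM in AE, so the cell type named by each column fitted its markers. Markers of other epithelial cells differed too. The summed level of 10 goblet cell markers was 30100 to 61900 CPM in AE and 1560 to 2430 CPM in ISC, and that of 10 enteroendocrine markers was 3520 to 14300 CPM in AE and 257 to 912 CPM in ISC. Paneth cell markers ran the other way, with sums of 52.1 to 227 CPM in AE and 551 to 1640 CPM in ISC, and tuft cell markers overlapped in young mice (358 to 1100 and 226 to 455 CPM) and were higher in AE of aged mice (454 to 543 and 135 to 371 CPM). The summed level of 12 T cell markers was low but higher in AE of aged mice, at 17.9 to 34 CPM against 5.22 to 6.9 CPM in ISC, and overlapped in young mice at 12.2 to 37 and 7.91 to 17.2 CPM. The part of these other cells in the differences between AE and ISC was not tested. Of the myeloid markers, 4 to 7 of 10 were at 0 in all libraries of a group. In 8 of 12 sample titles the code contradicted the group that the title went on to name. Columns were therefore grouped by their own names, and the age in those names was not checked against a marker.

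The 7 genes lie on chromosomes 5, 7, 10, 11 and 13 of the GRCm38 build. For each of them the span in the count table equalled that in the GENCODE vM21 annotation. Of the nuclear members, Sirt1 lies at chr10:63319005-63381704, Sirt6 at chr10:81621785-81627797 and Sirt7 at chr11:120618372-120625240, all on the minus strand. Sirt2 lies at chr7:28766735-28788661 on the plus strand. Of the mitochondrial members, Sirt3 lies at chr7:140863666-140882309 and Sirt4 at chr5:115478010-115484725 on the minus strand, and Sirt5 lies at chr13:43365496-43395203 on the plus strand. Reads over exon bases that belong to 2 genes may be shared between them. Such bases made up 12.7% of the exons of Sirt3 (with Ric8a and Psmd13, on the other strand), 3.46% for Sirt7 (with Mafg and Mir6936, on the same strand), 1.22% for Sirt1 and 0.834% for Sirt2, and none for Sirt4, Sirt5 and Sirt6.

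Promoter sequence is shown for Sirt2 and Sirt5, which were called in opposite directions between ISC and AE in the main fits described below. The RefSeq starts (GRCm38.p6) of both are preceded by bases outside any annotated exon. From the 250 bases before each start, only the stretch outside exons is printed. For Sirt2 this was 94 bases at chr7:28766641-28766734, between its own first exon and an exon of Nfkbib. For Sirt5 it was 211 bases at chr13:43365285-43365495. Both are on the plus strand, and capitals mark the letters of a searched motif.
Sirt2: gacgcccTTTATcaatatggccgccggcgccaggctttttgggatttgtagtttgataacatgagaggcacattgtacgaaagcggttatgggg
Sirt5: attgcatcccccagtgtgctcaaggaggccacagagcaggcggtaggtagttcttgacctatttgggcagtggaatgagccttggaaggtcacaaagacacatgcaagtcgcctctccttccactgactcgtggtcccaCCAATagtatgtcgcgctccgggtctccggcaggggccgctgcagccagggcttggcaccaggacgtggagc
Each motif was searched on both strands. For promoters in general these were the letters GGGCGG for the GC box and the letters CCAAT for the box bound by NF-Y, and the letters CACGTG for the E-box. For factors of the intestinal epithelium they were the letters CTTTGA for the core bound by TCF and LEF factors, the letters CAAAGTCCA for a site of HNF4A, the letters TTTAT for the core bound by CDX factors and the letters AGATAA for that bound by GATA factors. The Sirt2 stretch held a single match, to TTTAT, which 17.3% of 32851 RefSeq promoters also hold in the same stretch. The Sirt5 stretch held a single match, to CCAAT, which 30% of those promoters hold in the same stretch. The 250 bases before the start of Sirt7 and those before both starts of Sirt3 lay wholly within exons and are not shown. Sirt1, Sirt4 and Sirt6 also had stretches outside exons there (up to 235, 34 and 149 bases), which are not shown either. A match is a description of the letters and not a binding site.

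To ask how sirtuin transcripts differ between stem cells and differentiated villus cells, AE were compared with ISC at each age (edgeR quasi-likelihood test, Benjamini-Hochberg adjustment over all genes, 3 libraries against 3). Sirt7, Sirt2 and Sirt3 were higher and Sirt5 was lower in AE of young mice. Sirt7 and Sirt2 were higher and Sirt4, Sirt5 and Sirt6 were lower in AE of aged mice. The count of 4 of 7 in young mice stood against 55.6% of all 16681 genes tested, and that of 5 of 7 in aged mice against 64.9% of 15855 genes, so a large part of all genes separated these cells and the members were called about as often as other genes. The median log2 fold change of the 7 was 0.15 in young and 0.17 in aged mice, beside 0.15 and -0.13 over all genes tested. As these are bulk samples, fewer cells of a type and less RNA per cell cannot be told apart.

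The direction of a small difference depended on how the libraries were scaled. With the trimmed mean of M-values (TMM), AE of young mice had 4817 genes higher and 4459 lower, and AE of aged mice had 4857 and 5429. With library totals alone, chosen after the data were seen, those numbers became 2614 and 7382 for young mice and 2776 and 8564 for aged mice, and the median of all genes shifted by -0.71 and -0.78 on the log2 scale. Differences are therefore also given relative to the median of all genes. Another scaling shifts all genes of a comparison by nearly the same amount. That each sirtuin kept its order under both scalings was thus fixed in advance. By sign, Sirt7 was higher and Sirt4, Sirt5 and Sirt6 were lower in AE than in ISC under both scalings. With TMM, Sirt4 and Sirt6 were not called in young mice (edgeR, adjusted p = 0.0546 and 0.289). Sirt1 and Sirt3 changed sign with library totals and Sirt2 lost its call. The median itself depends on which genes are kept. With a filter by expression, Sirt7 stood at 1.43 relative to the median in young and 1.66 in aged mice. With the filter on low counts used elsewhere it stood at 1.28 and 1.67. Sirt1 stood at 0.15 and 0.30 (0.00 and 0.30 with the filter on low counts), and Sirt2 at 0.80 and 0.96 (0.66 and 0.96).

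**Figure D1:**
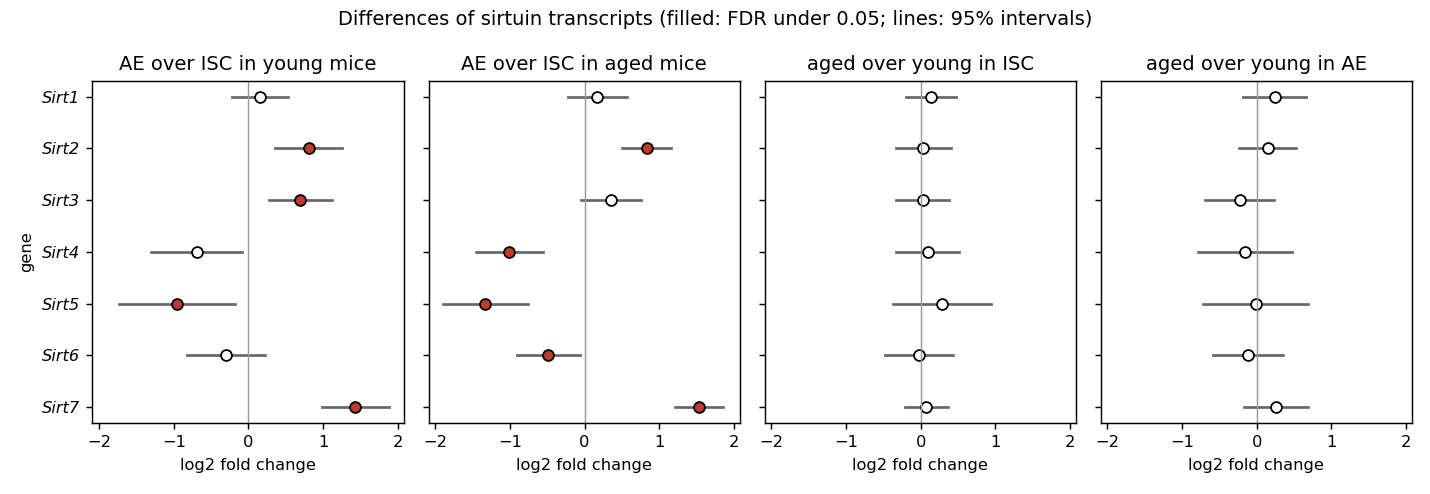
Log2 fold change of each sirtuin (x axis, log2 scale) in AE over ISC of young and of aged mice and in aged over young ISC and AE, with 95% intervals from the fit of 3 libraries against 3; filled points passed an FDR of 0.05. Sirt7 stood farthest to the right in both comparisons of cell types (1.43 and 1.54), and no point was filled in either comparison of ages.

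Sirt7, which encodes a mainly nucleolar deacetylase tied to rRNA transcription and chromatin, showed the largest difference of the family with TMM and relative to the median of all genes, although Sirt4, Sirt5 and Sirt6 differed more with library totals alone. The ISC libraries stood at 49.9, 50 and 48.7 CPM when young (in the order Y1, Y2, Y3) and at 56.1, 48.8 and 50.7 CPM when aged (O1, O3, O5). The AE libraries stood at 155, 97.3 and 150 CPM when young and at 158, 145 and 173 CPM when aged. Every AE library lay above every ISC library, as was the case for 62.9% of genes tested in young mice and 69.9% in aged mice when both directions are counted. The level was 2.7-fold higher in AE of young mice (log2 fold change 1.43 ± 0.20 SE, adjusted p = 0.000562) and 2.91-fold higher in AE of aged mice (1.54 ± 0.15, adjusted p = 6.94e-06). Relative to the median of all genes the log2 difference was 1.28 in young and 1.67 in aged mice, and the call held under all 17 alternatives in each comparison, with 0.72 and 0.76 for library totals alone. Young AE library Y2, the lowest of the AE libraries for Sirt7, also had the highest summed level of stem cell markers in AE (832 CPM, against 195 to 364 CPM in the other young and 220 to 312 CPM in the aged AE libraries) and of proliferation markers (651 CPM, against 125 to 228 and 151 to 164 CPM). Without that library the log2 difference in young mice was 1.52. Mafg, which shares 124 exon bases with Sirt7 on the same strand, had mean levels of 45.5 ± 11.7 and 50.6 ± 13.8 CPM in ISC of young and aged mice (SD, n = 3) and of 79.1 ± 28.4 and 99.9 ± 8.34 CPM in their AE. The part of shared reads in the Sirt7 value was not tested.

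Sirt6, which encodes a chromatin deacetylase that acts in DNA repair and in the control of glycolytic genes, had lower means in AE than in ISC at both ages. Young ISC gave 25.6, 17.9 and 16.7 CPM, and aged ISC gave 20.8, 16.5 and 21.5 CPM. Young AE gave 19.4, 14.3 and 15.2 CPM, and aged AE gave 17.4, 13.4 and 13.4 CPM. The ranges of AE and ISC overlapped at both ages. The log2 difference was -0.30 ± 0.23 (adjusted p = 0.289) in young and -0.48 ± 0.19 (adjusted p = 0.0443) in aged mice. The call in aged mice was lost under 10 of 17 alternatives, with an adjusted p of up to 0.133, among them DESeq2 (0.108), RLE scaling (0.0853), a filter by expression (0.0563), no filter (0.0501) and leaving out library O1 of ISC (0.124), O5 of ISC (0.0871), O3 of AE (0.133) or O5 of AE (0.125). Sirt6 was lower at both ages with library totals alone (-1.01, adjusted p = 0.00678, and -1.27, adjusted p = 0.000305). Relative to the median of all genes the values were -0.45 and -0.36.

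Sirt1, which encodes the best studied mammalian sirtuin, a deacetylase of p53, FOXO factors and PGC-1α, had the smallest differences between AE and ISC with TMM but not with library totals alone. The values were 26.5, 27.6 and 24.5 CPM for young ISC, followed by 27.2, 26.6 and 32.3 CPM for aged ISC. They were 25.8, 32.2 and 29.6 CPM for young AE, followed by 28.4, 32.8 and 41 CPM for aged AE. All 4 groups overlapped with their neighbours in the order of means, in which aged AE came first and young ISC last. The log2 difference of AE over ISC was 0.15 (95% interval -0.22 to 0.53, adjusted p = 0.445) in young and 0.17 (-0.22 to 0.57, adjusted p = 0.406) in aged mice. With library totals alone it turned to -0.55 (adjusted p = 0.023) and -0.61 (adjusted p = 0.011), so neither a rise nor a fall of Sirt1 is given here. Relative to the median of all genes it was at 0.00 in young and 0.30 in aged mice.

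Sirt2, the cytosolic member, whose product deacetylates α-tubulin and metabolic enzymes, was measured at 35.5, 25.9 and 33.6 CPM for young ISC, with aged ISC at 34.8, 31.8 and 30.4 CPM. The young AE libraries were at 54.1, 46 and 66.2 CPM, with aged AE at 55.3, 63.5 and 63.2 CPM. Every AE library was above every ISC library, where 62.9% of genes in young and 69.9% in aged mice had ranges apart in either direction. The level was 1.75-fold higher in AE of young mice (log2 fold change 0.81 ± 0.20, adjusted p = 0.00799) and 1.78-fold higher in AE of aged mice (0.84 ± 0.15, adjusted p = 0.000567). These calls held in each of the 12 fits that left out a library, but with library totals alone the log2 differences were 0.096 (adjusted p = 0.673) and 0.050 (adjusted p = 0.764). Relative to the median of all genes they were 0.66 and 0.96. Nfkbib, whose exons share 42 bases with those of Sirt2 on the other strand, also had higher means in AE, at 47 ± 2.16 and 50.3 ± 6.38 CPM in young and aged AE against 24.4 ± 3.29 and 23.1 ± 3.27 CPM in the ISC groups, and its part in the Sirt2 value was not tested.

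**Figure D2:**
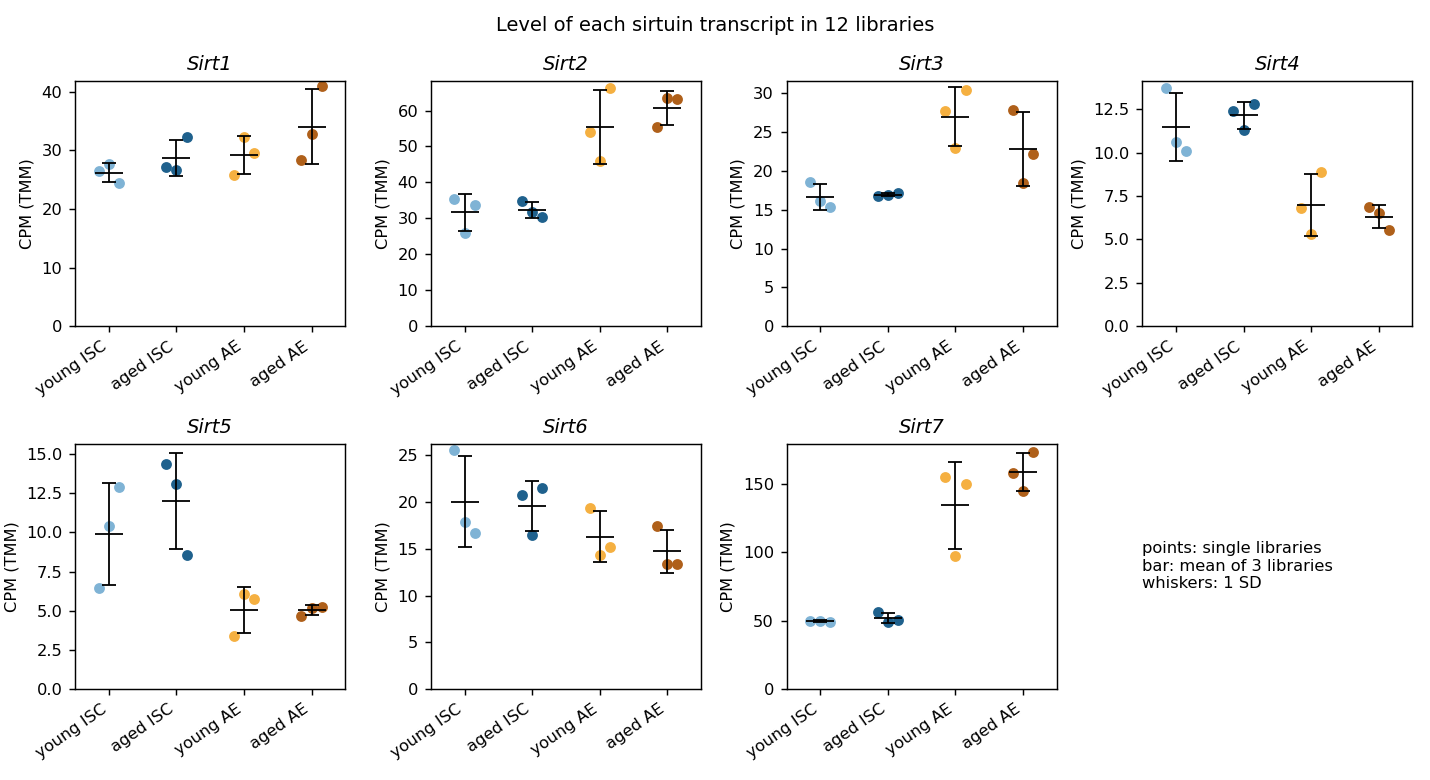
CPM after TMM scaling (y axis, linear, from 0) of each sirtuin in the 4 groups (x axis); points are the 3 libraries of a group, the horizontal bar is their mean and whiskers are 1 SD. Sirt7 and Sirt2 stood higher and Sirt4 and Sirt5 lower in every AE library than in every ISC library of the same age. The ISC and AE ranges of Sirt1 and Sirt6 overlapped. Of all genes tested, 62.9% in young and 69.9% in aged mice had ranges apart, in either direction.

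Of the mitochondrial members, Sirt3 stood higher with TMM but not with library totals alone, and Sirt4 and Sirt5 lower with both, in AE. Sirt3 encodes the main mitochondrial deacetylase, which acts on enzymes of fatty acid oxidation and the antioxidant defence. Stem cells of young mice held 18.6, 16.1 and 15.4 CPM of it, and those of aged mice 16.8, 16.9 and 17.2 CPM. Enterocytes of young mice held 27.7, 22.9 and 30.4 CPM, and those of aged mice 27.9, 18.4 and 22.2 CPM. At each age all AE libraries were above all ISC libraries, and ranges were apart in either direction for 62.9% and 69.9% of genes. The log2 difference passed the test in young mice (0.70 ± 0.19, adjusted p = 0.0124), though not without young ISC library Y2 (0.67, adjusted p = 0.0503) or young AE library Y3 (0.53, adjusted p = 0.0677), and was 0.36 ± 0.18 (adjusted p = 0.112) in aged mice. The 2 differences themselves did not differ by test (aged minus young -0.27, 95% interval -0.82 to 0.28, adjusted p = 1). With library totals alone the values turned to -0.015 and -0.42, neither past the threshold (adjusted p = 0.951 and 0.0834), and relative to the median of all genes they were 0.55 and 0.48. Ric8a, which shares 418 exon bases with Sirt3 on the other strand, had means of 38.1 ± 3.51 and 43.2 ± 3.76 CPM in the young and aged ISC groups and of 75.1 ± 9.33 and 91.3 ± 5.66 CPM in the AE groups. Psmd13, which shares 342 exon bases with Sirt3 on the other strand, had means of 112 ± 25.1 and 110 ± 26.2 CPM in young and aged ISC. Its means in young and aged AE were 120 ± 10.6 and 130 ± 7.79 CPM. The kit keeps strand, but whether the counting used it is not given in the sources used here. The part of Ric8a and Psmd13 reads in the Sirt3 value was not tested.

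Sirt4 encodes a mitochondrial lipoamidase and ADP-ribosyltransferase that acts on the pyruvate and glutamate dehydrogenase steps. Stem cell libraries had 13.7, 10.6 and 10.1 CPM from young mice and 12.4, 11.3 and 12.8 CPM from aged mice. Enterocyte libraries had 6.79, 5.29 and 8.88 CPM from young mice and 6.85, 6.54 and 5.56 CPM from aged mice, each below every ISC library. Among all genes, 62.9% in young and 69.9% in aged mice had ranges apart in either direction. In aged mice the level was 2.02-fold lower in AE (log2 fold change -1.01 ± 0.20, adjusted p = 0.00136), under all 17 alternatives. In young mice the log2 difference was -0.69 ± 0.27 and just missed the threshold (adjusted p = 0.0546). It passed in edgeR with the library code as a replicate block (-0.70, adjusted p = 0.048), with DESeq2 (-0.70, adjusted p = 0.0393), and without young AE library Y3 (-0.996, adjusted p = 0.0158). It stayed above the threshold under 11 of 17 alternatives, among them DESeq2 with the block (-0.72, adjusted p = 0.0535), with an adjusted p of up to 0.166. The value was -1.41 with library totals alone (adjusted p = 0.00181), and -1.80 in aged mice, and relative to the median of all genes -0.84 and -0.88. The 2 differences did not differ by test (-0.26, 95% interval -0.95 to 0.43, adjusted p = 1).

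Sirt5 encodes the mitochondrial enzyme that removes succinyl, malonyl and glutaryl groups, with carbamoyl phosphate synthetase among its targets. It was the lowest member per kilobase of exon in all 4 groups. From young ISC came 6.44, 10.4 and 12.9 CPM, and from aged ISC 14.4, 13.1 and 8.58 CPM. From young AE came 3.35, 6.04 and 5.75 CPM, and from aged AE 4.66, 5.2 and 5.23 CPM. The AE libraries were below all ISC libraries, although the lowest young ISC library (6.44 CPM) and the highest young AE library (6.04 CPM) nearly met. Ranges were apart in either direction for 62.9% of genes in young and 69.9% in aged mice. The level was 1.94-fold lower in AE of young mice (log2 fold change -0.96 ± 0.34, adjusted p = 0.0405) and 2.51-fold lower in AE of aged mice (-1.33 ± 0.26, adjusted p = 0.001). Relative to the median of all genes the differences were -1.11 and -1.20, and with library totals alone -1.66 and -2.11. The call in aged mice held under all 17 alternatives. That in young mice was lost without young ISC library Y2 (adjusted p = 0.108), young ISC library Y3 (0.15) or young AE library Y1 (0.0911). Counts behind these values were small, with 41 to 73 reads in the AE libraries other than Y3, where there were 480.

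The makeup of the family does not depend on how libraries are scaled, and it was therefore set out as shares of the summed CPM per kilobase of exon within each library. Sirt7 made up 23.8%, 27.6% and 26.6% of the sum in ISC of young mice and 26.8%, 26% and 25.1% in those of aged mice. Its share reached 49.6%, 40.9% and 46.2% in AE of young mice and 49.9%, 48.2% and 51.2% in those of aged mice, so no AE library overlapped with an ISC library. Sirt4 held 11.8% to 14% of the sum in ISC and 3.54% to 5.88% in AE. Sirt6 held 16.3% to 22.5% in ISC and 7.35% to 11.5% in AE. By group mean it was the second most abundant member per kilobase in both ISC groups. Sirt2 stood above it in ISC libraries Y3 (18.7% against 16.8%) and O3 (17.4% against 16.3%). The kilobases are those of all annotated exons of a gene merged, and the order of members depends on them. Sirt5 held 2.59% to 5.93% in ISC and 0.907% to 2.14% in AE. The shares of Sirt2 ranged from 14.6% to 18.7% in ISC and from 17.7% to 21.6% in AE, and those of Sirt3 from 6.89% to 7.76% and from 5.27% to 8.29%, with overlap for both. Sirt1 held 12.2% to 15.4% in ISC and 7.96% to 13% in AE. The read count of Sirt7 over that of Sirt6 was 1.95 to 2.96 in the ISC libraries and 6.8 to 12.9 in the AE libraries. Beside this change of makeup, the summed level of all 7 genes after TMM scaling was 158 to 182 CPM in ISC and 224 to 323 CPM in AE, but with library totals alone it was 204 to 243 CPM in ISC and 184 to 235 CPM in AE, with overlap.

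**Figure D3:**
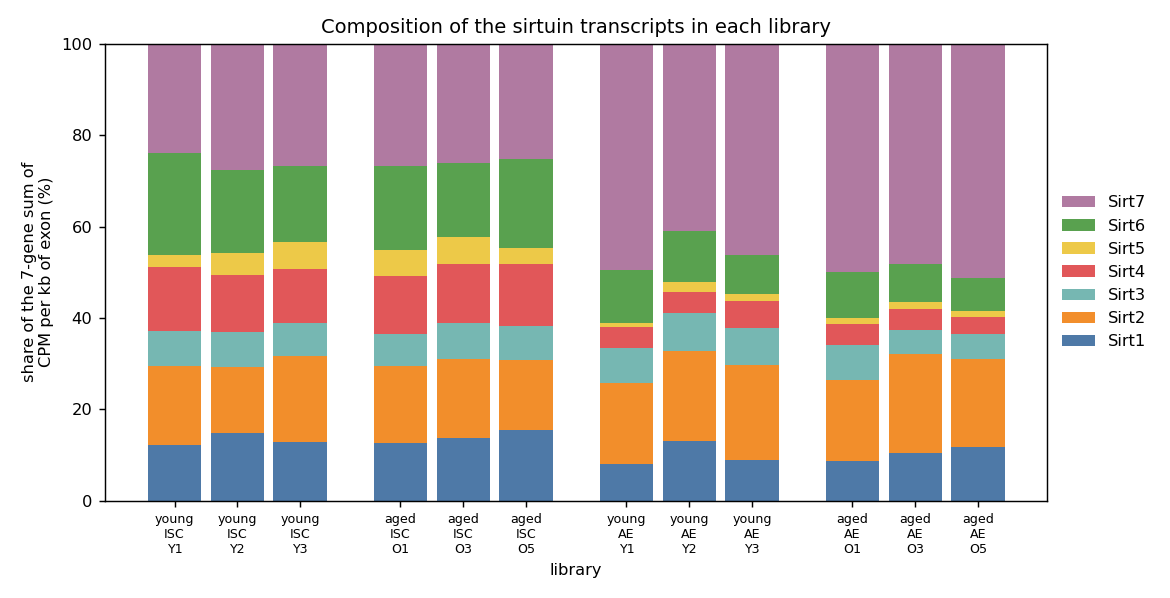
Share of each sirtuin (y axis, percent) in the summed CPM per kilobase of exon of the 7 genes, with a stacked bar for each of the 12 libraries (x axis). The Sirt7 segment filled 23.8% to 27.6% of the bars in ISC and 40.9% to 51.2% in AE, and the Sirt4 segment 11.8% to 14% and 3.54% to 5.88%.

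To ask whether sirtuin transcripts change with age, aged libraries were compared with young ones within each cell type. None of the 7 passed in ISC or in AE, and none had an unadjusted p under 0.05. Neither did any of the 15552 genes tested in ISC or the 16265 in AE pass (0% called by edgeR in each), with 784 (5.04%) and 779 (4.79%) at an unadjusted p under 0.05, while DESeq2 called 58 and 18 genes and no sirtuin. In none of the 7 were the young and aged ranges apart, in either cell type, against 8.84% of genes in ISC and 10.9% in AE.

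In ISC, Sirt5 went from 9.89 ± 3.23 CPM in young to 12 ± 3.04 CPM in aged libraries (SD, n = 3), a log2 fold change of 0.29 with a 95% interval of -0.37 to 0.94, which was 0.055 without young library Y1. Sirt1 went from 26.2 ± 1.6 to 28.7 ± 3.12 CPM (0.14, -0.20 to 0.47). For the other members in ISC the values lay between -0.019 for Sirt6 and 0.096 for Sirt4. In AE, Sirt7 had a mean of 134 ± 31.9 CPM when young and 159 ± 14 CPM when aged (log2 fold change 0.26, 95% interval -0.17 to 0.69), and it was 0.087 without young AE library Y2. Sirt1 was at 29.2 ± 3.22 and 34.1 ± 6.37 CPM (0.24, -0.18 to 0.66), where aged libraries O3 and O5 were above all young libraries and O1 was not. Sirt3 was at 27 ± 3.81 and 22.8 ± 4.78 CPM (-0.23, -0.69 to 0.23). The values of Sirt2, Sirt4, Sirt5 and Sirt6 in AE lay between -0.16 and 0.15. Over all members, the 95% intervals reached from -0.48 to 0.94 in ISC and from -0.79 to 0.69 in AE, and changes within these intervals could not be told from none with 3 libraries in a group. The age difference did not pass a test between the cell types for any sirtuin (adjusted p = 1 for all 7), and 1 of 17377 genes (0.00575%) passed that test, with 675 (3.88%) at an unadjusted p under 0.05, or 19 with the library code as a replicate block. These comparisons share libraries with each other and with those of the cell types.

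Around the sirtuins, genes of a list on NAD+ synthesis were more often higher than lower in AE. The list also held genes whose products use or move NAD+ rather than make it. Among these, Nadk (log2 fold change 0.85 in young and 0.80 in aged mice) and Slc25a51 (1.11 and 1.24) were called higher. Nadk2 was called lower (-1.15 and -1.49). Of 19 genes listed, 15 were tested at each age, of which AE of young mice had 8 higher and 1 lower and AE of aged mice 8 higher and 2 lower, beside 28.9% higher and 26.7% lower among all genes in young mice and 30.6% and 34.2% in aged mice. Naprt, which encodes the first enzyme of synthesis from nicotinic acid, rose from 89.7 ± 15.7 to 399 ± 58.7 CPM in young mice (log2 fold change 2.15 ± 0.20, adjusted p = 0.000136) and from 88.5 ± 12.9 to 456 ± 45.9 CPM in aged mice (2.29 ± 0.18, adjusted p = 2.12e-06). Ido1, which encodes an enzyme at the entry of tryptophan into the kynurenine route, went from 1.14 ± 0.576 CPM to 241 ± 172 CPM in young mice (adjusted p = 3e-04) and from 0.112 ± 0.0435 to 243 ± 104 CPM in aged mice (adjusted p = 6.25e-08). Afmid, the next enzyme of that route, rose from 5.76 ± 0.655 to 20.2 ± 4.78 CPM in young and from 6.28 ± 0.864 to 24.3 ± 3.71 CPM in aged mice (log2 fold change 1.82 and 1.87, adjusted p = 0.000532 and 1.45e-05). Later genes of the route were hardly detected, with Haao, Kmo, Kynu and Qprt at group means of 0.645 CPM or less. Nadk2, the mitochondrial NAD kinase, fell from 128 ± 17.5 to 57.9 ± 19.8 CPM in young and from 130 ± 17.3 to 48.5 ± 19.2 CPM in aged mice (-1.15 and -1.49, adjusted p = 0.00639 and 0.00103). Nmnat2 was under 1 CPM in AE and at 2.42 ± 0.639 CPM in aged ISC, and passed as lower in aged mice (adjusted p = 0.000147). With library totals alone the list gave 4 higher and 3 lower in young and 5 higher and 3 lower in aged mice, with Naprt, Ido1, Afmid and Nadk2 called in the same direction.

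Other consumers of NAD+ split in both directions. Of 8 genes tested in young mice 3 were higher and 3 lower, as were 3 and 3 of 7 in aged mice, where all genes gave 28.9% and 26.7% in young and 30.6% and 34.2% in aged mice. The split became 1 higher and 4 lower at each age with library totals alone. Bst1, which encodes an ADP-ribosyl cyclase on the cell surface, rose from 12.6 ± 8.26 to 376 ± 81.6 CPM in young (log2 fold change 4.90 ± 0.49, adjusted p = 0.000292) and from 3.01 ± 1.62 to 486 ± 64.2 CPM in aged mice (7.31 ± 0.46, adjusted p = 1.14e-06). Parp1, the main poly(ADP-ribose) polymerase of the DNA damage response, fell from 148 ± 14 to 26.5 ± 9.13 CPM (-2.49 ± 0.27, adjusted p = 0.000231) and from 124 ± 9.83 to 14.3 ± 4.26 CPM (-3.18 ± 0.22, adjusted p = 9.46e-07). Parp2 and Cd38, a second NAD glycohydrolase gene, were lower as well, with log2 differences of -1.27 and -0.59 in young and -1.39 and -1.02 in aged mice. Tnks, a tankyrase gene, passed as higher at both ages (0.68 and 0.77), but its sign turned with library totals alone (-0.027 and -0.030). Parp3 passed as higher in aged mice (0.89), where library totals alone gave 0.12. Sarm1 passed as higher in young mice at levels under 1 CPM.

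Of 5 genes for known regulators of sirtuins, 4 were lower in AE at both ages and under each of the 4 scalings, beside 26.7% and 34.2% of all genes called lower. Senp1, whose product takes SUMO off SIRT1 and other proteins, fell from 60.5 ± 5.63 to 23.4 ± 2.87 CPM in young and from 61.5 ± 11.1 to 23.5 ± 3.23 CPM in aged mice (log2 fold change -1.37 and -1.46, adjusted p = 0.000321 and 4.46e-05). Ccar2 encodes an inhibitor of SIRT1 and fell from 94.7 ± 10.1 to 55.4 ± 1.18 CPM and from 94.7 ± 10.1 to 55 ± 4.48 CPM (-0.77 and -0.86, adjusted p = 0.00223 and 0.000506). Rps19bp1 encodes AROS, described as an activator of SIRT1, and fell from 23.7 ± 3.17 to 12.2 ± 0.575 CPM and from 24 ± 5.41 to 8.99 ± 1.53 CPM (-0.96 and -1.48, adjusted p = 0.00273 and 0.000214). The fourth was Usp22, with -0.60 and -0.67. Hic1, the fifth gene, which encodes a repressor, was below 1 CPM in every group mean, with log2 differences of 0.41 (adjusted p = 0.689) in young mice and 1.87 in aged mice, where it passed as higher (adjusted p = 0.0499), though not with upper-quartile scaling or library totals alone.

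**Figure D4:**
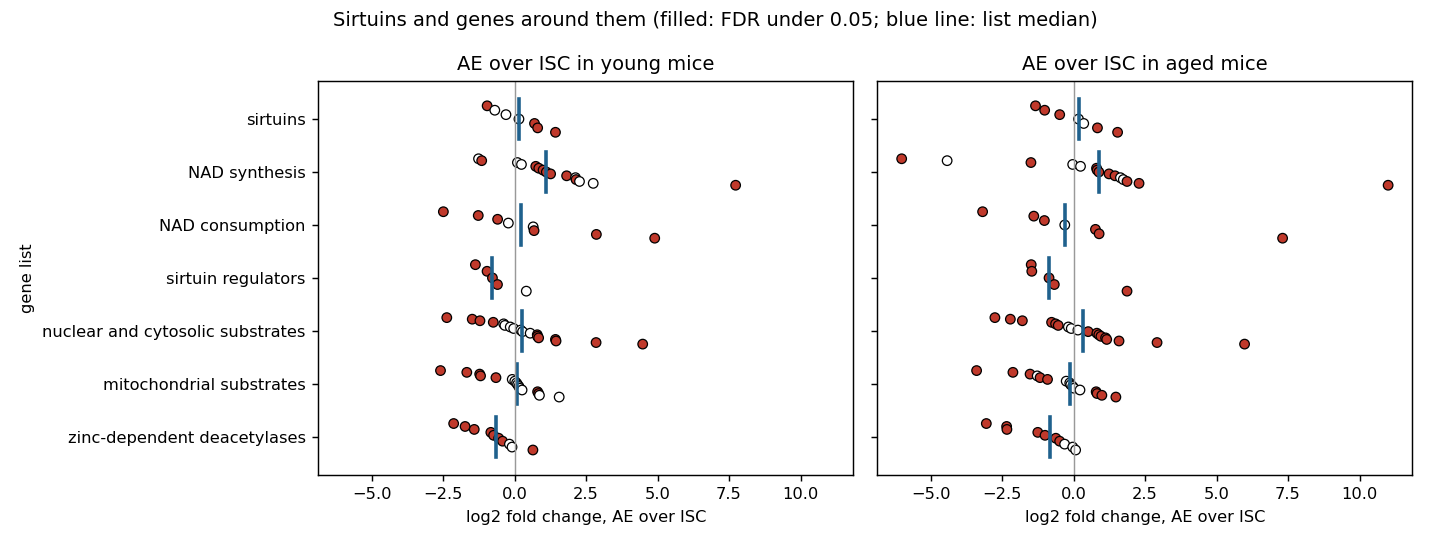
Log2 fold change of AE over ISC (x axis, log2 scale, TMM) for the 7 sirtuins and the genes of 6 lists around them (y axis), in young and in aged mice; each point is a gene tested, filled where its FDR was under 0.05, and the blue line is the median of the list. Points of the NAD synthesis list lay mostly to the right (medians 1.11 and 0.89). Those of sirtuin regulators and zinc-dependent deacetylases lay mostly to the left (medians -0.77 and -0.86, -0.65 and -0.81).

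Genes whose products are known substrates in the nucleus and cytosol differed in both directions, with 7 of 18 higher and 4 lower in young mice, and 9 and 6 in aged mice, against shares of 28.9% higher and 26.7% lower, and 30.6% and 34.2%, among all genes. Pck1, a gluconeogenic enzyme gene, rose from 17.8 ± 12.3 to 397 ± 235 CPM in young and from 6.98 ± 1.86 to 461 ± 80.4 CPM in aged mice (log2 fold change 4.48 and 5.98, adjusted p = 0.00162 and 1.35e-07). Ppargc1a, which encodes the mitochondrial coactivator PGC-1α, rose from 9.76 ± 1.08 to 70.3 ± 15.9 CPM and from 11.1 ± 5.19 to 87.4 ± 17.1 CPM (2.85 and 2.92, adjusted p = 7.32e-05 and 7.88e-05). Nr1h4, the bile acid receptor FXR, and Nr1h3, the oxysterol receptor LXRα, passed as higher at both ages (1.45 and 1.12, 1.43 and 1.59), though Nr1h4 did not pass in young mice with library totals alone (0.74, adjusted p = 0.11). Trp53, the p53 gene, fell from 158 ± 27.9 to 30.7 ± 4.44 CPM in young and from 162 ± 22.2 to 25.3 ± 2.24 CPM in aged mice (-2.37 and -2.75, adjusted p = 9.14e-05 and 4.17e-07). Xrcc6, the Ku70 gene, and Acss2, the cytosolic acetyl-CoA synthetase gene, were lower too, at -1.48 and -1.21 in young and -2.21 and -1.79 in aged mice. Of the 18, 3 were higher and 9 lower at each age with library totals alone.

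Among genes for mitochondrial substrates, 2 of 16 were higher and 5 lower in young mice, and 4 and 5 in aged mice. The shares among all genes (28.9% and 26.7%, 30.6% and 34.2%) put the lower counts near the background. Cps1, which encodes the urea cycle enzyme that SIRT5 acts on, fell from 3290 ± 277 to 545 ± 403 CPM in young and from 2740 ± 249 to 274 ± 107 CPM in aged mice (log2 fold change -2.59 ± 0.50 and -3.39 ± 0.34, adjusted p = 0.00283 and 1.11e-05). Idh2, a substrate gene of SIRT3, was lower (-1.67 and -2.12), as was Ppif, the cyclophilin D gene (-1.22 and -1.52). Mlycd, whose product malonyl-CoA decarboxylase is a SIRT4 substrate, was higher at 0.84 and 0.82 (adjusted p = 0.0118 and 0.00844), which fell to 0.13 and 0.046 with library totals alone. Glud1 passed as higher at both ages (0.81 and 0.79), and Acadl and Acadvl, both genes of fatty acid oxidation, passed in aged mice (1.48 and 0.99) with values of 1.56 and 0.87 in young mice. None of the 16 was called higher with library totals alone, and 9 in young and 11 in aged mice were called lower.

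The zinc-dependent deacetylases, the other enzyme class that takes acetyl groups off lysines, were mostly lower in AE. Of 10 genes tested, 7 were lower at each age, and 1 was higher in young mice, while 26.7% and 34.2% of all genes were lower. Scaled by library totals alone, 9 in young and 10 in aged mice were lower and none was higher. Hdac2 fell from 110 ± 3.15 to 33.2 ± 6.81 CPM in young and from 108 ± 12.3 to 22.5 ± 0.705 CPM in aged mice (log2 fold change -1.73 and -2.33, adjusted p = 0.000211 and 7.87e-07). Hdac7 was lower too (-2.13 and -3.05), as was Hdac6, a cytosolic tubulin deacetylase gene like Sirt2 (-1.41 and -2.34). Hdac5 was the single higher gene, at 0.64 in young mice (adjusted p = 0.0351), and its sign turned with library totals alone (-0.071). With age, where edgeR called 0% of all genes, it called none of these 6 lists either.

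Among the members, the log2 CPM of Sirt2 and Sirt7 went together over the 12 libraries (Pearson r = 0.956), and that of Sirt5 ran against Sirt7 (r = -0.843). These values describe libraries of 4 groups that share library codes and scaling, and most of the spread lay between ISC and AE. The genes most like each sirtuin were ranked by the same measure among 12641 genes with a mean of at least 1 CPM. They were Fam219a for Sirt7 (r = 0.995), which had means of 1.83 and 2.07 CPM in young and aged ISC and of 9.55 and 11.9 CPM in young and aged AE, Rnf167 for Sirt2 (r = 0.988), Nmd3 for Sirt5 (r = 0.971), Slc27a1 for Sirt4 (r = 0.968), Fzr1 for Sirt3 (r = 0.948), Atp2c2 for Sirt6 (r = 0.93) and Rcbtb1 for Sirt1 (r = 0.91).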

How the data were processed

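RNA of sorted ISC and AE was measured by poly(A) RNAseq with a directional kit, as 50 bp single-end reads. The authors trimmed adaptors with Trim Galore 0.4.4, mapped reads to GRCm38 with HISAT2 2.1.0, and deposited raw read counts of uniquely mapped reads over the exons of merged transcripts per gene, made in SeqMonk. The annotation release and the strand setting of the counting are not given in the sources used here. A further deposited table, which holds log2 expression values and FDR values for only those genes that the authors called with age and no sirtuin, was not used. The 7 sirtuins and all gene lists were chosen with earlier results of these data known. The genes named are all sirtuins, for each list up to 3 of the largest rises and 3 of the largest falls among genes called, with a few others from the lists given for their role and chosen after their values were seen, the genes most like each sirtuin, and genes that share exon bases with a sirtuin.

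Counts were tested in R 4.3.3 with edgeR 4.0.16 (TMM, genes with at least 10 counts in total, quasi-likelihood fit with robust estimation and without legacy mode, the mode chosen after the data were seen), each comparison on its own 2 groups, with no covariate and an FDR of 0.05. The SE of a log2 fold change is its size over the square root of F. CPM values were scaled by TMM over all 12 libraries. Gene names repeated in the table (46) were kept as separate rows. Libraries of a group differed by more than sampling noise. ISC and AE of an age share library codes. Same-code libraries deviated together (correlations 0.213 to 0.431 in 6 of 6 pairs over 12642 genes, against -0.376 to 0.11 for 12 pairs of different code), so the code was taken to pair libraries in a blocked fit. Whether libraries are single mice is stated only through the cohort sizes, so p-values measure the spread between these libraries. DESeq2 1.42.0, RLE and upper-quartile scaling, filters by expression (filterByExpr) or none, a fit on all 4 groups, the block and leaving out each library were the other settings tried. Library totals alone, legacy mode, a fit without robust estimation and DESeq2 with the block were added after the data were seen. Scripts were tested on simulated data. Promoter sequences are from RefSeq (GRCm38.p6).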

Additional observations from a re-analysis of the deposited data

How the results depend on the processing

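The numbers of sirtuins called in AE over ISC were 4 to 5 in young and 4 to 5 in aged mice under every alternative that kept all libraries. With library totals alone the genes behind these numbers changed. Sirt1, Sirt4, Sirt5 and Sirt6 were then called lower and Sirt7 higher at both ages. Sirt2 at both ages and Sirt3 in young mice lost their calls. Leaving out each library in turn gave 2 to 4 sirtuins called in young mice, with 2 without young ISC library Y2, and 4 to 5 in aged mice. It gave 0 for both age comparisons and for the difference between them. In edgeR the codes as a replicate block gave 5 and 5 in AE over ISC and changed no call of a sirtuin other than that of Sirt4 in young mice, whereas DESeq2 with the block gave 4 and 4, with Sirt4 in young mice (adjusted p = 0.0535) and Sirt6 in aged mice (0.119) not called. No paired fit was made for the age comparisons, because young and aged libraries share no code. Signs that turned in AE over ISC were those of Sirt1 (-0.551 in young and -0.615 in aged mice) and Sirt3 (-0.0146 and -0.42) with library totals alone, and Sirt1 in young mice in fits that left out a library (-0.0127 to 0.203). The cause was not tested. All other signs that turned were of age values near 0. With library totals alone these were Sirt6 in ISC (0.0111) and, for the difference of age effects, Sirt1 (-0.0632) and Sirt2 (-0.0467). Sirt5 in AE turned with DESeq2 (0.0076) and in legacy mode (0.00327). In fits that left out a library, age values in ISC ran from -0.0853 to 0.124 for Sirt2, -0.0243 to 0.11 for Sirt3 and -0.133 to 0.188 for Sirt6. Those in AE ran from -0.301 to 0.0914 for Sirt4, -0.207 to 0.121 for Sirt5 and -0.253 to 0.0143 for Sirt6, and their differences from -0.105 to 0.186 for Sirt1, -0.0585 to 0.224 for Sirt2, -0.322 to 0.00674 for Sirt6 and -0.0387 to 0.249 for Sirt7. Upper-quartile scaling moved the median of all genes in young mice by -0.124. With a filter by expression that median differed by -0.117, but it was taken over 13161 genes in place of 16681. Genes called with age numbered 58 in ISC and 18 in AE with DESeq2, and 3 and 2 with an edgeR fit on all 4 groups. For the difference, DESeq2 called 43 genes, DESeq2 with the block 146, and edgeR with library totals alone 0. No sirtuin was among them. Counts of Sirt4 and Sirt5 in AE were the smallest of the family, which limits their precision.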
